A study of Mus musculus with 4 samples.

Results

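The ribosomal protein genes are the protein-coding genes whose symbols name a protein of the cytosolic ribosome. They were chosen by symbol alone, as Rpl or Rps followed by a number with an optional letter and digit, or as Rplp0, Rplp1 or Rplp2. Pseudogenes and the Rps6k kinases were left out. This gave 82 genes of 37310, of which 22380 are protein-coding. Of the 82 genes, 47 encode proteins of the large (60S) subunit, 32 encode proteins of the small (40S) subunit and 3 encode the P stalk, the arm of the large subunit that recruits translation factors. Their RNA was compared between mature and elderly wild-type male C57Bl/6 mice, aged 3 and 24 months, with 2 libraries per age. The study's methods give the cells as skeletal stem/progenitor cells of the bone marrow, sorted for the leptin receptor and against blood and endothelial lineage markers (Lin-LEPR+), whereas the labels call the source whole bone marrow. The methods say that RNA of 3 to 4 animals was combined for a group, whereas the labels number the libraries of each age as mouse 1 and 2, so it is not settled whether the spread between libraries is one between animals.

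Each ribosome joins a small subunit, which reads the mRNA, to a large subunit, which makes the peptide bond. Ribosomal proteins are needed in matched amounts, and their mRNAs share a run of pyrimidines at the very start, the TOP motif, through which mTORC1 and the protein LARP1 control their translation together. Ribosome production is costly and follows growth and proliferation, and translation is often studied in stem cells and in aging. Most ribosomal protein genes have many processed pseudogene copies in the genome, which makes short reads from them hard to place.

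The files hold whole-number counts of reads per transcript, with totals of 11930137 and 11730849 (mature) and 10472117 and 15650518 (elderly), and counts were summed per gene here. Levels are given in CPM, counts scaled to a common library size with TMM factors. The defining transcripts of LEPR+ stroma were abundant in every library, with a summed level of 30783 and 31306 CPM in mature and 19132 and 27016 CPM in elderly mice, and 0 of 11 tested were called. All 11 had log2 fold changes below 0 (median -0.37), 7 were lower in both elderly libraries than in both mature ones, and 4 had an unadjusted edgeR p under 0.05. Markers of some other cells and of proliferation were higher in the elderly libraries. The summed neutrophil markers stood at 2137 and 1214 CPM in mature and 4649 and 4406 CPM in elderly mice (6 of 9 tested called higher), erythroid markers at 291 and 153 against 1054 and 762 CPM (5 of 9 called higher), and proliferation genes at 569 and 310 against 1385 and 954 CPM (6 of 17 called higher). Of plasma cell markers 1 of 4 was called higher, while the other 3 had log2 fold changes below 0 (median of the 4, -0.21). Of B lineage and endothelial markers 0 of 7 and 0 of 4 were called. Of the 7 B lineage markers 5 lay above 0 (median 0.77). The summed B lineage level was yet lower in elderly mice, at 745 and 662 CPM in mature and 445 and 553 CPM in elderly libraries. Ebf1 is in both the B lineage and the LEPR+ stroma lists, so that sum is not one of B lineage cells alone. The part of Ebf1 in it was not tested. Over all genes tested, 1.94% were called higher. Ptprc, which encodes CD45, stood at 0.346 and 0.0862 CPM in mature and 1.08 and 0.521 CPM in elderly mice, also higher in both elderly libraries (log2 fold change 1.83, edgeR adjusted p = 0.644). The part of these cells in the values below was not tested, and in RNA from many cells a change in the number of cells of a type and a change in RNA per cell cannot be told apart.

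The counts do not cover the whole of each gene. Reads on bases that several annotated transcripts share seem to have been dropped, since none of 25621 transcripts lacking any base of their own was given a count. What is counted for a ribosomal protein gene is therefore what falls on its own bases, those that belong to 1 transcript and no other. The genes fell into separate classes in this respect. In 21 genes only 1 transcript is annotated, and in all but 2 of them the whole of it is own bases. One of these 2 is Rps25, with 70.9%. The other 61 genes hold the rest of the 359 annotated transcripts, and in the median gene 79.8% of the own bases are spliced out of another transcript of the same gene, so that they are mainly introns and alternative exons. In 42 of these 61 genes over 50% of the counts lay on transcripts of that kind.

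Few own bases were left in some genes. Rps24, a small subunit protein whose last exons are spliced in several ways, had 98 own bases over 4 of its 5 transcripts, and Rps23 had 52. The stretches that carry the counts of Rps24 are given below with the own bases in capitals, together with the start of the intron that carries most counts of Rpl10, since these show how little of a coding mRNA the values rest on. They are written 5′ to 3′ from the mouse build NCBIM37 (mm9).
Rps24, chr14:25312971-25313003, plus strand, the last 3 bases of a transcript: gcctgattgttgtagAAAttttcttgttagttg
Rps24, chr14:25314637-25314669, plus strand, the last 3 bases of another transcript: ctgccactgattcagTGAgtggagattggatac
Rps24, chr14:25312701-25312745, plus strand, the first 30 of 55 own bases of a transcript with counts in every library: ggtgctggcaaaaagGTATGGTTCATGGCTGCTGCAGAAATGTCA
Rps24, chr14:25314982-25315033, plus strand, the 37 own bases of the remaining one: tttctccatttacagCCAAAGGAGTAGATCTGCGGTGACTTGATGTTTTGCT
Rpl10, chrX:71516341-71516440, plus strand, the start of the coding sequence in lower case and the first 77 of 336 own bases of a retained intron in capitals: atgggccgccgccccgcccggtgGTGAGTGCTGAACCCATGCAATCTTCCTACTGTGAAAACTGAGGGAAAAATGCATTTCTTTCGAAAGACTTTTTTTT

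In the class with 1 annotated transcript, much of the sequence also occurs elsewhere in the genome. Reads were sequenced in pairs of 40 bases each. Of all windows of 40 bases on the own bases of the 21 genes with 1 transcript, a median of 66.9% per gene occurred at another place in the genome as an exact copy. The share ran from 10.3% in Rpl8 to 99.7% in Rps27. In the genes with several transcripts the median was 0% and the highest value 37.9% (Rplp0). The mate of a read was not considered in this search, and how the authors treated reads with several matches is not given in the sources used here. The 163 annotated ribosomal protein pseudogenes together held 4359 and 3619 reads (mature) and 6110 and 5409 reads (elderly), and the 82 genes held 38092, 33104, 48110 and 46796 reads in the same order. The pseudogenes were 0.0365%, 0.0309%, 0.0583% and 0.0346% of all counts, highest in elderly replicate 1, and their part in the values of the 82 genes was not tested.

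**Figure D1:**
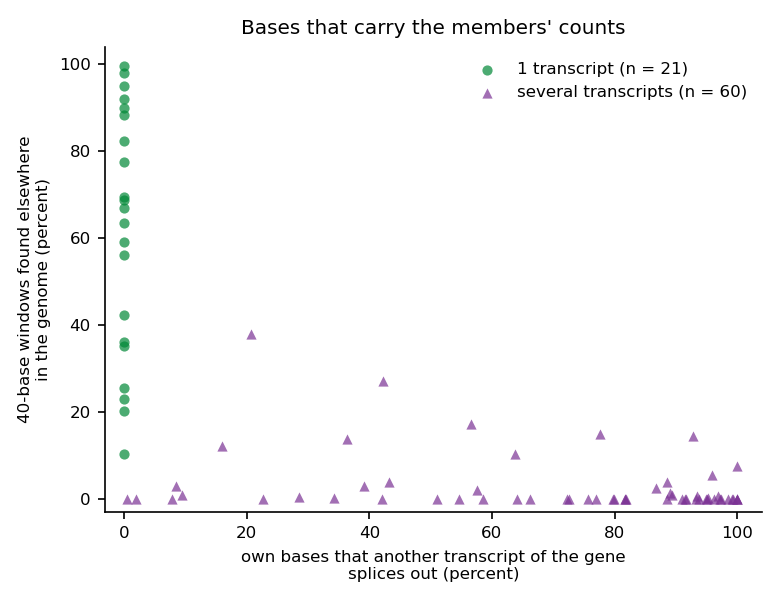
Percent of the own bases that another transcript of the same gene splices out (horizontal) against the percent of 40-base windows on own bases that occur elsewhere in NCBIM37 (vertical), 1 point per ribosomal protein gene with at least 1 window. The 21 genes with 1 transcript lie at 0% on the horizontal axis and between 10.3% and 99.7% on the vertical axis, while the genes with several transcripts spread along the horizontal axis and stay at or under 37.9%.

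Per kilobase of own bases, the genes with 1 transcript were counted far more deeply. Their median was 121 CPM per kilobase (20 genes with counts, range 22.04 to 439), compared with 7.35 CPM per kilobase (60 genes tested, range 0.643 to 96.8) in the genes with several transcripts. The bases differ in kind, mRNA in the first class and, in most genes of the second, mainly introns and alternative exons. The highest level belonged to Rpl8 (uL2), which lies close to the peptidyl transferase centre, with 395 and 354 CPM per kilobase (mature) and 586 and 423 CPM per kilobase (elderly). Rpl4 (uL4), which lines the exit tunnel, followed with 336 and 267 CPM per kilobase (mature) and 510.5 and 394 CPM per kilobase (elderly). Rplp1, an acidic protein of the P stalk, had 320.1 and 249 CPM per kilobase (mature) and 534 and 321 CPM per kilobase (elderly). The order of these 3 differed between libraries, and their ranges overlapped.

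Next came Rpl32, Rps27, Rps12, Rps3a, Rps25, Rpl36 and Rpl3, proteins of both subunits, whose means over the 4 libraries ran from 281 CPM per kilobase in Rpl32 down to 123 in Rpl3. Most windows of all these genes are repeated elsewhere, from 59.2% in Rpl32 to 99.7% in Rps27, as are 69.5% of those of Rplp1. The part of repeats in this order was not tested. Rps27, for which 99.7% of windows are repeated elsewhere, stood at 221 and 179.9 CPM per kilobase (mature) and 222 and 173 CPM per kilobase (elderly), so its ages overlapped. Rpl32, a large subunit protein, stood at 270.1 and 189 CPM per kilobase (mature) and 451 and 213 CPM per kilobase (elderly), with only elderly replicate 1 above the mature values. Neighbours in this order overlapped in their ranges over libraries.

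In counts scaled to library size, Rps12, a small subunit protein, gave 96.0 and 74.6 CPM (mature) and 114 and 62.5 CPM (elderly). Rps25, which several viral mRNAs need to start translation, gave 68.5 and 54.6 CPM (mature) and 103 and 53.7 CPM (elderly). In both genes elderly replicate 2 was the lowest library and elderly replicate 1 the highest. Rps3a (eS1), which sits at the mRNA exit, had 149 and 122 CPM (mature) and 203 and 137 CPM (elderly). Rpl36, a large subunit protein, had 47.8 and 35.8 CPM (mature) and 74.6 and 46.7 CPM (elderly). Rpl3 (uL3), a protein close to the peptidyl transferase centre, had 157 and 148 CPM (mature) and 212 and 152 CPM (elderly). In these 3 genes elderly replicate 2 fell between the mature libraries. In 18 of the 20 genes with counts the highest value was that of elderly replicate 1, whatever the gene's level.

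**Figure D2:**
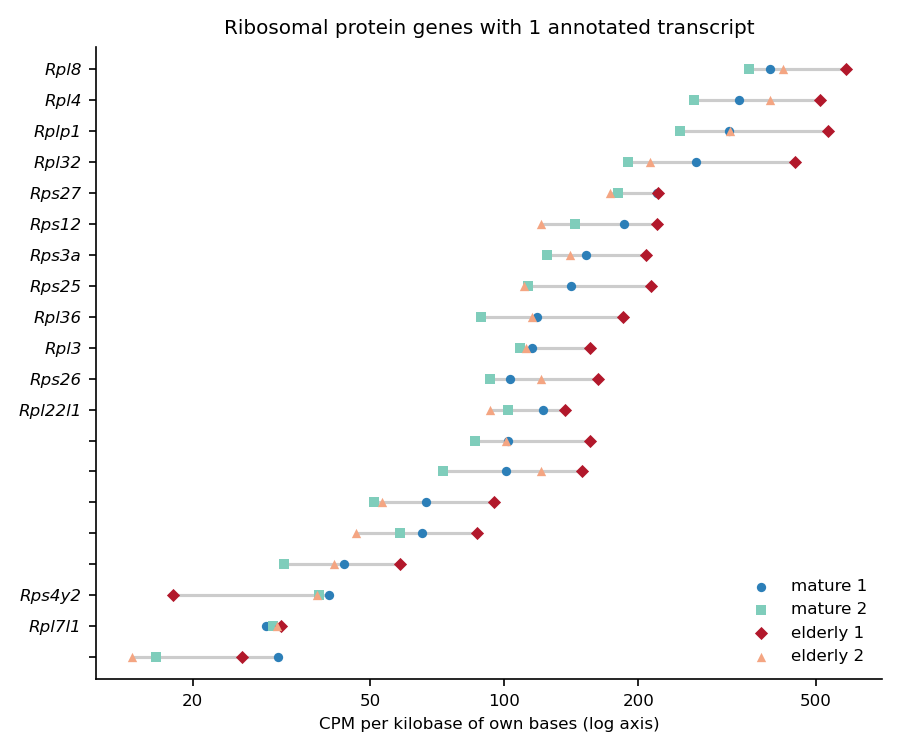
Level of each of the 20 ribosomal protein genes with 1 annotated transcript and at least 1 count, in CPM per kilobase of own bases on a log axis, with 1 point per library and a line over the range. Genes described in the text are labelled. In 18 of 20 genes elderly replicate 1 (dark red diamonds) is the highest point, whereas elderly replicate 2 (light triangles) lies above both mature libraries in 6 genes.

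To ask whether the RNA of ribosomal protein genes changed with age, all 22214 genes with more than 2 reads over the 4 libraries were compared by edgeR's quasi-likelihood test (2-sided, Benjamini-Hochberg adjustment over all of them). Of the 82 genes, 80 were tested. Rpl10l had 0 reads in every library, and Rpl38 had 1, 1, 0 and 0 reads on 119 own bases. With 0.05 as the threshold of the adjusted p, 0 of the 80 were called higher with age (1.94% of all genes tested) and 0 lower (0.423%). DESeq2 also called 0 members, where it called 2.48% of all genes higher and 0.689% lower, and edgeR's exact test called 0, against 0.806% and 0.131%. At an unadjusted p under 0.05, 5 members were higher and 2 lower (7.10% and 3.83% of all genes tested). The elderly values both exceeded the mature values in 11 members (22.0% of all genes tested) and both fell under them in 7 members (18.9%), so neither count stood above its background.

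The precision of the comparison set what could be seen. The 95% interval of the log2 fold change had a median width of 1.43 over the 80 genes, and in 38 of them it lay wholly between -1 and 1. A change of 2 times or more was thus outside the interval in these 38 genes and within it, in at least 1 direction, in the other 42.

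Among members with a mean of at least 1 CPM, those with the largest log2 fold changes among those whose libraries did not overlap between ages included Rpl36a, Rplp1, Rpl4, Rplp0 and Rps26. Rpl4 (chr9:64021194-64026369) stood at 478 and 379.9 CPM (mature) and 726 and 561 CPM (elderly), both elderly values above both mature values. The log2 fold change, elderly over mature, was 0.58 ± 0.21 (SE), adjusted p = 0.245 by edgeR's quasi-likelihood test. Of its windows 25.4% are repeated elsewhere, fewer than in most genes of its class. The share was 69.5% in Rplp1 and 66.9% in Rps26. Which windows the reads fell on was not examined.

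The stalk proteins gave 158 and 123 CPM (mature) and 264 and 159 CPM (elderly) for Rplp1 (chr9:61761091-61762345), a log2 fold change of 0.59 ± 0.25 (SE), adjusted p = 0.386 by edgeR. Rplp0 (chr5:116009476-116013736), the base of the stalk onto which the acidic proteins dock, has 4 annotated transcripts but was counted almost wholly on the coding mRNA. It had 57.8 and 46.9 CPM (mature) and 89.8 and 62.2 CPM (elderly), with a log2 fold change of 0.54 ± 0.23 (SE), adjusted p = 0.409 by edgeR. In Rplp1 the elderly replicate 2 and the mature replicate 1 were nearly equal, so the groups were apart by a very small margin. The third stalk gene, Rplp2, where 88.1% of counts lay on bases spliced out elsewhere, had 17.8 and 10.6 CPM (mature) and 15.2 and 9.70 CPM (elderly) and overlapped between ages.

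Rps26 (chr10:128061586-128063562), a small subunit protein at the mRNA exit channel, was counted at 46.1 and 41.5 CPM (mature) and 72.7 and 54.0 CPM (elderly), both elderly values above both mature ones (log2 fold change 0.53 ± 0.22 (SE), adjusted p = 0.377, edgeR). Rpl36a (chrX:131120193-131122601), on the X chromosome, had the largest value but few reads, 30 and 27 reads (mature) and 53 and 51 reads (elderly), all on transcripts whose own bases are spliced out elsewhere. Its log2 fold change was 0.71 ± 0.43 (SE), adjusted p = 0.633 by edgeR, an interval from -0.23 to 1.65.

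At the other end stood Rpl10, Rpl7a, Rps4y2, Rps9 and Rpl15. Rpl10 (uL16, chrX:71516151-71518474), which is added late to the large subunit and is needed for its final maturation, had the smallest p of all members. It was counted at 46.2 and 61.6 CPM (mature) and 35.4 and 23.9 CPM (elderly), both elderly values below both mature values, with a log2 fold change of -0.87 ± 0.26 (SE), adjusted p = 0.134 by edgeR. The adjusted p depended on the fit. It was 0.0279 without a filter on low counts, a setting that called 3.53% of all genes higher and 0.889% lower, and 0.0213 in edgeR's robust fit, which called 3.11% higher and 0.846% lower. In DESeq2 it was 0.0512.

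Most Rpl10 reads lay on a retained intron. Of 11 annotated transcripts, the retained-intron transcript whose first own bases are printed above held 415 and 566 reads (mature) and 279 and 283 reads (elderly). Of all Rpl10 counts, 99.8% lay on transcripts whose own bases another Rpl10 transcript splices out. Counting transcripts with a protein-coding biotype alone left a log2 fold change of -0.42 (edgeR adjusted p = 0.751). The values describe RNA that holds this intron or alternative exons and leave the level of the main Rpl10 mRNA unmeasured.

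Spliced-out bases also held nearly all counts of Rpl7a and Rps9. Rpl7a (chr2:26766284-26768838), a large subunit protein, had 132 and 136 reads (mature) and 90 and 90 reads (elderly). It lay lower in both elderly libraries, with a log2 fold change of -0.73 (edgeR adjusted p = 0.387), and 99.3% of its counts lay on bases spliced out elsewhere. Rps9, a protein of the small subunit, stood at 42.7 and 42.5 CPM (mature) and 40.8 and 23.8 CPM (elderly) with 99.3% of counts of that kind. Elderly replicate 1 of Rps9 was close to the mature values and elderly replicate 2 was the low one.

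Rpl15 and Rps4y2 differ in that mRNA was counted. Rpl15, a protein of the large subunit, had 37.9 and 36.5 CPM (mature) and 33.2 and 28.8 CPM (elderly), a log2 fold change of -0.26 ± 0.22 (SE), adjusted p = 0.736 by edgeR. Rps4y2 (chr6:148303178-148304120) is a small-subunit gene whose single transcript lies on chromosome 6. It was counted at 38.2 and 36.3 CPM (mature) and 17.0 and 35.9 CPM (elderly), so that elderly replicate 1 was low and elderly replicate 2 lay just under the mature libraries. It was the only gene with 1 transcript in which elderly replicate 1 was the lowest library.

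**Figure D3:**
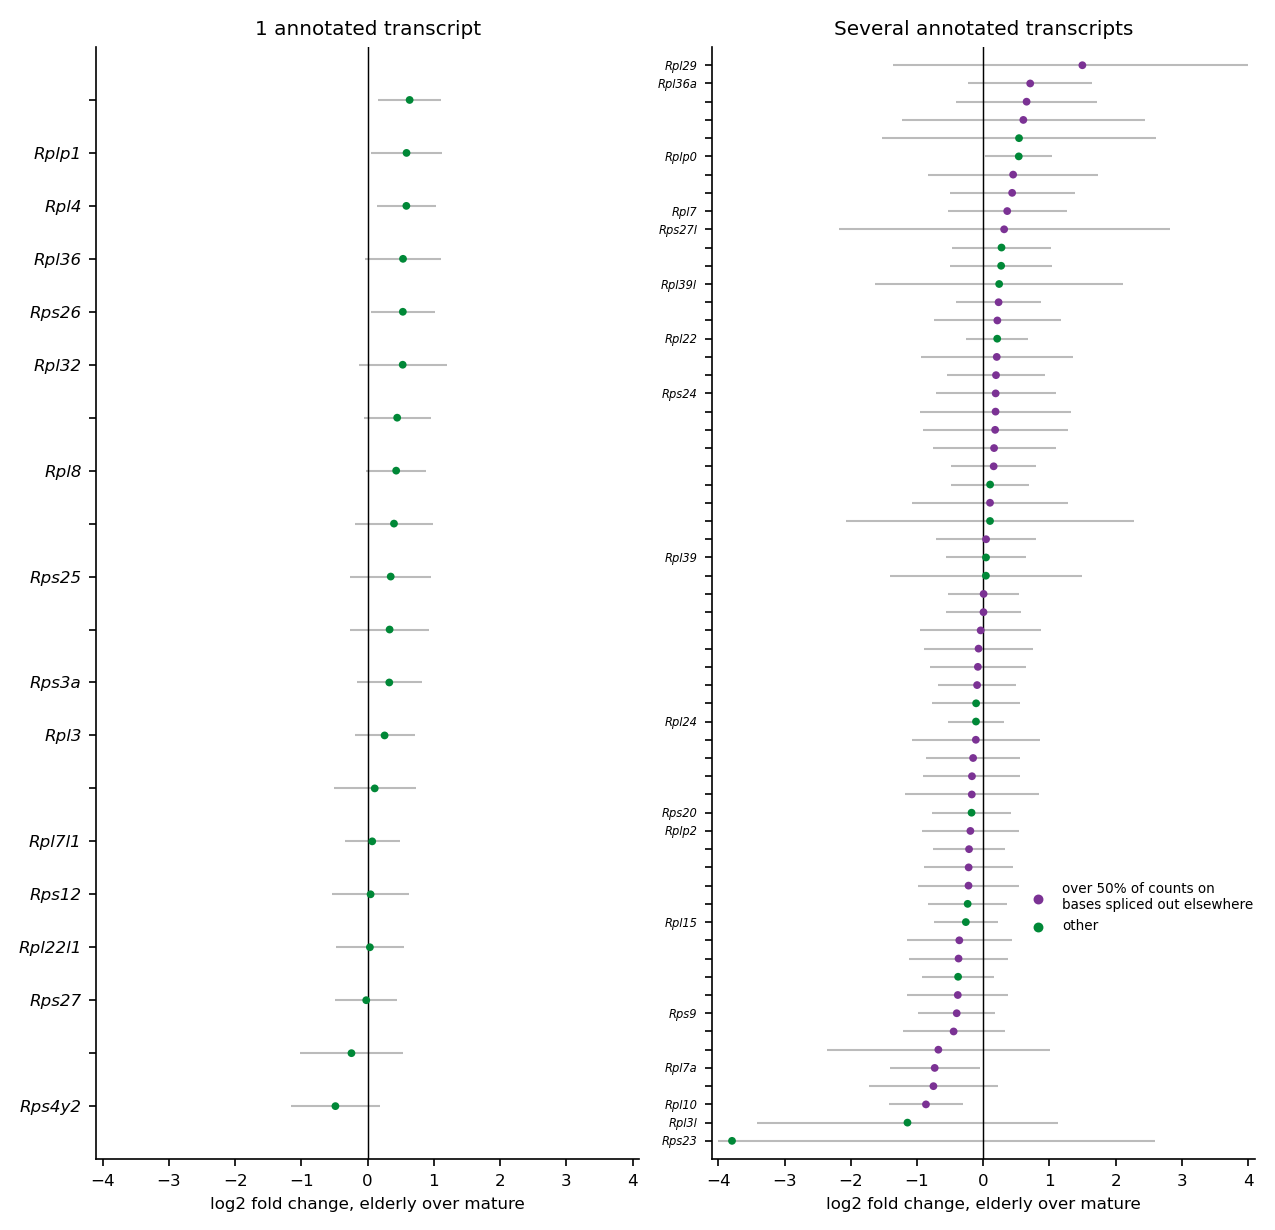
Log2 fold change, elderly over mature, with its 95% interval (edgeR quasi-likelihood fit) for the 80 tested members, split by the number of annotated transcripts, with genes described in the text labelled. Purple marks genes with over 50% of counts on transcripts whose own bases are spliced out of another transcript, and lines that reach -4 or 4 run past the axis. In the left panel 17 of 20 points lie above 0, in the right panel 31 of 60 do, and 7 intervals in all leave out 0.

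The median differed between the classes, a difference that was not tested. The log2 fold change had a median of 0.09 over the 80 members and -0.01 over all genes tested. It was 0.34 in the genes with 1 transcript, where 17 of 20 lay above 0, and 0.00 in the genes with several transcripts, where 31 lay above and 29 below. Over all protein-coding genes with 1 annotated transcript the median was 0.08, with 2877 of 5107 above 0, and over those with several it was -0.03. The 6 genes with 1 transcript and under 50% of repeated windows had a median of 0.38 and the 14 with more had 0.34. These medians were close, but the libraries behind them differed. Both elderly libraries exceeded both mature libraries in 4 of the 6 genes and in 2 of the 14 (22.0% of all genes tested). The part of repeated sequence in these values was not tested. Within the class, large subunit genes had a median of 0.36 (11 of 12 above 0) and small subunit genes 0.33 (5 of 7 above 0).

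The median of the genes with 1 transcript moved with the libraries kept. Leaving out elderly replicate 1 gave 0.04 in these genes, with 11 of 20 above 0, and leaving out elderly replicate 2 gave 0.64, with 19 of 20 above 0. Over all members the median was -0.17 in the first case, the opposite sign, and 0.29 in the second. Without mature replicate 1, 19 of 20 genes with 1 transcript lay above 0, and without mature replicate 2, 14 of 20 did. Mature replicate 2 was the lowest library in 12 of these 20 genes. Elderly replicate 1 was also the library with the highest summed erythroid, neutrophil and proliferation markers and the lowest LEPR+ stroma markers, whose part in these values was not tested.

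As a share of all counts, the 82 genes took 0.319% and 0.282% of the mature and 0.459% and 0.299% of the elderly libraries. The exact binomial 95% interval of elderly replicate 1 ran from 0.455% to 0.464%, and such intervals cover counting error alone. Elderly replicate 2 lay between the mature values, and the exact permutation test over 4 libraries gave p = 0.667, where the smallest p it can give is 0.333. The large subunit genes took 0.209% and 0.183% against 0.303% and 0.205%, the small subunit genes 0.0879% and 0.0814% against 0.118% and 0.0715%, and the stalk genes 0.0227% and 0.0179% against 0.0391% and 0.0226%. All 3 groups were highest in elderly replicate 1 and overlapped between ages.

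A measure taken within each library separated the ages. The reads on genes with 1 transcript were 2.34 and 1.99 times those on genes with several transcripts in the mature libraries and 3.12 and 3.01 times in the elderly libraries. The reads on genes with several transcripts include 1282 and 1540 (mature) and 1280 and 1698 (elderly) on 1 Rpl24 transcript. As given below, that transcript does not measure the main Rpl24 mRNA. Both elderly values lay above both mature values, and the elderly libraries, which differed in every summed share above, were close to each other here. The exact permutation p was 0.333, the smallest that 2 libraries against 2 can give. The summed neutrophil, erythroid and proliferation markers separated the ages as well, and their part in the ratio was not tested. The same ratio over all protein-coding genes was 0.899 and 0.874 in mature and 0.932 and 0.942 in elderly mice, also in this order but by a smaller step.

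The ratio also enters the shares of reads by kind of bases. Transcripts whose own bases are mostly spliced out elsewhere held 16.4% and 16.7% of the members' reads in mature mice and 12.3% and 11.4% in elderly mice. Transcripts annotated as retained introns held 11.6% and 11.5% of the members' reads in mature mice and 8.34% and 7.54% in elderly mice. The elderly shares were the lower ones in both libraries. Among the genes with several transcripts alone, the mostly spliced-out share was 54.6% and 49.8% against 50.5% and 45.7%, and the ages overlapped. The retained-intron share there was 38.8% and 34.5% against 34.3% and 30.3%, apart by a very small margin. Over all protein-coding genes, retained-intron transcripts held 4.09% and 3.86% of all counts in mature and 3.90% and 3.02% in elderly libraries, and there the ages overlapped. These splits were chosen after the values were seen.

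**Figure D4:**
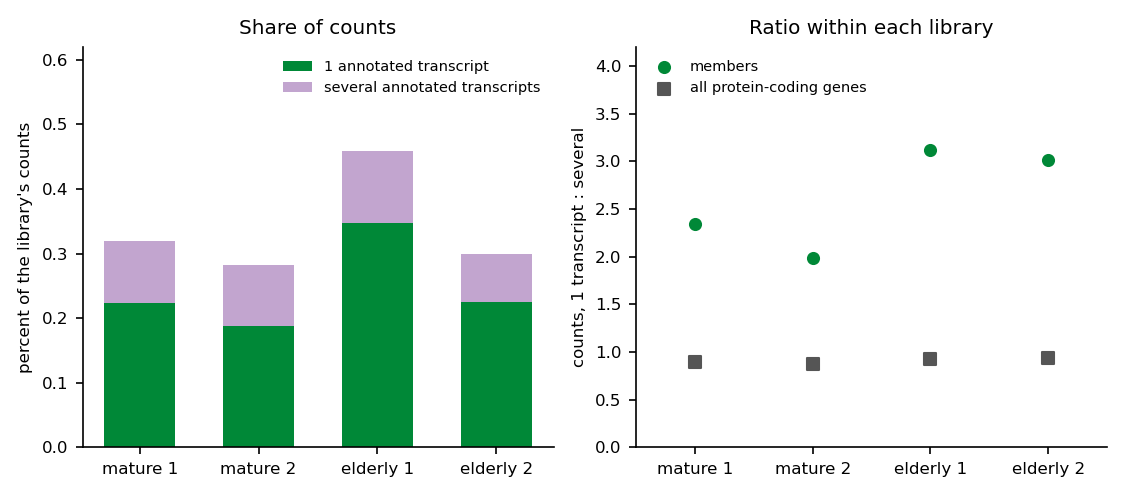
Left, the percent of each library's counts on ribosomal protein genes with 1 and with several annotated transcripts, stacked, with 1 bar per library. Right, reads on genes with 1 transcript divided by reads on genes with several, for the ribosomal protein genes (circles) and for all protein-coding genes (squares). The bars are highest in elderly replicate 1 and alike in the other libraries, whereas the ratio is 3.12 and 3.01 in the elderly and 2.34 and 1.99 in the mature libraries.

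Some members have a second gene with a related protein, and these paralogs were compared with their parents. Rpl22l1, which can replace Rpl22, was counted at 59.9 and 49.9 CPM (mature) and 67.1 and 45.4 CPM (elderly). Rpl22 itself was counted at 58.7 and 44.7 CPM (mature) and 59.3 and 60.3 CPM (elderly). Both Rpl22 elderly values lay above the mature ones by a narrow margin (log2 fold change 0.21 ± 0.22 (SE), adjusted p = 0.812, edgeR). The ages of Rpl22l1 overlapped, with a log2 fold change of 0.03 and an interval from -0.48 to 0.55.

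Rpl7l1, a relative of Rpl7, had 76.3 and 79.0 CPM (mature) and 82.1 and 80.7 CPM (elderly), with the elderly values slightly above the mature ones. Its log2 fold change was 0.07 with an interval from -0.35 to 0.49. Rpl7 itself could be counted mainly in introns and gave 5.02 and 3.28 CPM (mature) and 6.76 and 3.97 CPM (elderly). The other paralogs had few reads. Rpl3l, known from skeletal and heart muscle, had 10 and 6 reads (mature) and 4 and 4 reads (elderly), while Rpl3 had 1815 and 1717 reads (mature) and 2349 and 2343 reads (elderly).

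Rpl39l, known from the testis, had 8 and 8 reads (mature) and 4 and 19 reads (elderly), and Rpl39 had 287 and 213 reads (mature) and 292 and 280 reads (elderly). Rps27l had 1 and 9 reads (mature) and 7 and 7 reads (elderly), all on transcripts whose own bases are spliced out elsewhere, so the level of its mRNA was not measured. Its parent Rps27 had 880 and 720 reads (mature) and 849 and 917 reads (elderly). Rpl10l, the testis relative of Rpl10, had 0 reads, which allows at most 0.195 to 0.270 CPM per library on the basis of 3 reads. None of the paralogs or parents that could be tested was called.

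The other genes with several transcripts followed no common direction. The 42 with over 50% of counts on spliced-out transcripts had a median of -0.02, with 21 above and 21 below 0, and the 18 tested others had 0.04. The extremes were genes with very few reads, such as Rpl29 with 3 and 1 reads (mature) and 7 and 6 reads (elderly). Rpl24 and Rps20, named here after their values were seen because they held the most reads of the class, were also examined. Rpl24 had 1391 and 1632 reads (mature) and 1413 and 1760 reads (elderly), of which 1282, 1540, 1280 and 1698 lay on an annotated transcript that starts past the end of the main Rpl24 mRNA, which itself had 0 reads on 68 own bases. The Rpl24 values therefore do not measure that mRNA. Rps20 had 897 and 1468 reads (mature) and 1234 and 1069 reads (elderly), nearly all on a coding transcript of 3706 bases. Both sums overlapped between ages, with log2 fold changes of -0.11 and -0.18.

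The genes with few own bases were nearly blank. Rps23, a protein of the decoding centre, had 3 and 0 reads (mature) and 0 and 0 reads (elderly). A difference between ages was not detectable at this depth in Rps23, and the low counts say nothing of its expression. The 98 bases of Rps24 held 36 and 33 reads (mature) and 37 and 53 reads (elderly) and gave a log2 fold change of 0.19 ± 0.42 (SE), adjusted p = 0.935 by edgeR.

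Sequence at the transcription start was compared as a feature that the choice of genes did not use. RefSeq windows on GRCm38.p6 (300 bases, 250 before and 50 after the start, the first entry per gene) were matched by symbol for 60 of the 82 members. A run of at least 6 pyrimidines between 10 bases before and 20 bases after the start, on the transcribed strand, was present in 35 of these 60 (58.3%), compared with 28.6% of 27025 genes with a window. CTTTC, a form that such runs can contain, was found on that strand in the same place in 14 members (23.3%) and in 3.66% of all genes. On either strand, and from 40 bases before to 20 after the start, it was found in 36.7% of members and 14.5% of all genes. CCGGAAG, the core bound by ETS family factors, was found on either strand of the whole window in 22 of 60 members (36.7%) and in 9.12% of all genes, and TATAAA in 6 of 60 members and in 14.2% of all genes.

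Runs were present in 6 of 12 members with 1 transcript and in 29 of 48 with several. A match is a description of the letters, and RefSeq starts may lie some bases from the start used in these cells. The windows of 7 members described above run from 40 bases before to 20 after the start, 5′ to 3′ on the transcribed strand. In most of them the run sits near the start. In Rpl10, and in Rps25 but for its last bases, the run lies upstream of the stretch searched above. Runs of at least 6 pyrimidines are in capitals.
Rpl4, chr9:64173347-64173406, plus strand: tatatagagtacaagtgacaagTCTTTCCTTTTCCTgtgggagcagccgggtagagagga
Rps27, chr3:90213629-90213688, minus strand: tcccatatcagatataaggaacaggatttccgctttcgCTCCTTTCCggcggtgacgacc
Rps12, chr10:23787190-23787249, minus strand: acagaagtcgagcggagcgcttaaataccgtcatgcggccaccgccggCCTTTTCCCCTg
Rps25, chr9:44407674-44407733, plus strand: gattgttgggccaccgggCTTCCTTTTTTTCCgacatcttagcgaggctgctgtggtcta
Rps26, chr10:128626487-128626546, minus strand: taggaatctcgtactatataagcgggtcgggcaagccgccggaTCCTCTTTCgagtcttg
Rplp0, chr5:115559427-115559486, plus strand: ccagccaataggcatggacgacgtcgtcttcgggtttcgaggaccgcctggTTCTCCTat
Rpl10, chrX:74270776-74270835, plus strand: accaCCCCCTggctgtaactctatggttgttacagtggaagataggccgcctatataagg

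Other genes of the translation machinery were set beside the members. The 5 ribosomal proteins whose symbols fall outside the rule had a median log2 fold change of 0.40, with 0 called. Of these 4 lay above 0 and 1 below it, at -0.43. Among them Rpsa, a small subunit protein with 1 annotated transcript, was counted at 126 and 107 CPM in mature and 199 and 128 CPM in elderly libraries (log2 fold change 0.49, edgeR adjusted p = 0.478). Fau, whose product is cleaved to a ribosomal protein, had 109 and 75.9 against 149 and 95.8 CPM, and its ages overlapped. Of 18 other mRNAs with a TOP motif, 0 were called and the median was 0.23. In this list 11 lay above 0 and 7 below, the lowest at -2.16. Both elderly libraries exceeded both mature ones in 8 of them (22.0% of all genes tested). Both fell under them in 4 (18.9%). Eef2, the elongation factor that moves the ribosome along the mRNA, stood at 2353 and 1923 against 2751 and 2380 CPM, apart by a narrow margin (edgeR adjusted p = 0.691).

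Of 74 tested genes of ribosome biogenesis, 1 was called higher (1.94% of all genes tested) and 0 lower (0.423%), with a median of 0.20. The gene called was Nop58, a core protein of the box C/D particles that methylate ribosomal RNA, which rose from 54.6 and 63.8 CPM in mature to 138 and 98.6 CPM in elderly libraries (log2 fold change 1.00 ± 0.22 (SE), edgeR adjusted p = 0.0362). The 75 mitochondrial ribosomal protein genes had 0 called and a median of 0.04, and took 0.0858% and 0.0901% of mature and 0.0995% and 0.0903% of elderly counts. The 63 initiation and elongation factors (median 0.04) and the 27 genes of mTORC1 and Myc control (median -0.15) also had 0 called.

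Free ribosomal proteins can stabilize p53 through Mdm2, and 11 genes of that response were tested. Pmaip1, which encodes the BH3-only protein Noxa, was the only one called, at 6.32 and 4.57 CPM in mature and 17.04 and 12.7 CPM in elderly libraries (log2 fold change 1.45 ± 0.32 (SE), edgeR adjusted p = 0.0377). The median of the list was -0.01. Over all genes tested, 1.94% were called higher and 0.423% lower. Each of these lists was described by its counts and median alone, and none was tested as a set.

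**Figure D5:**
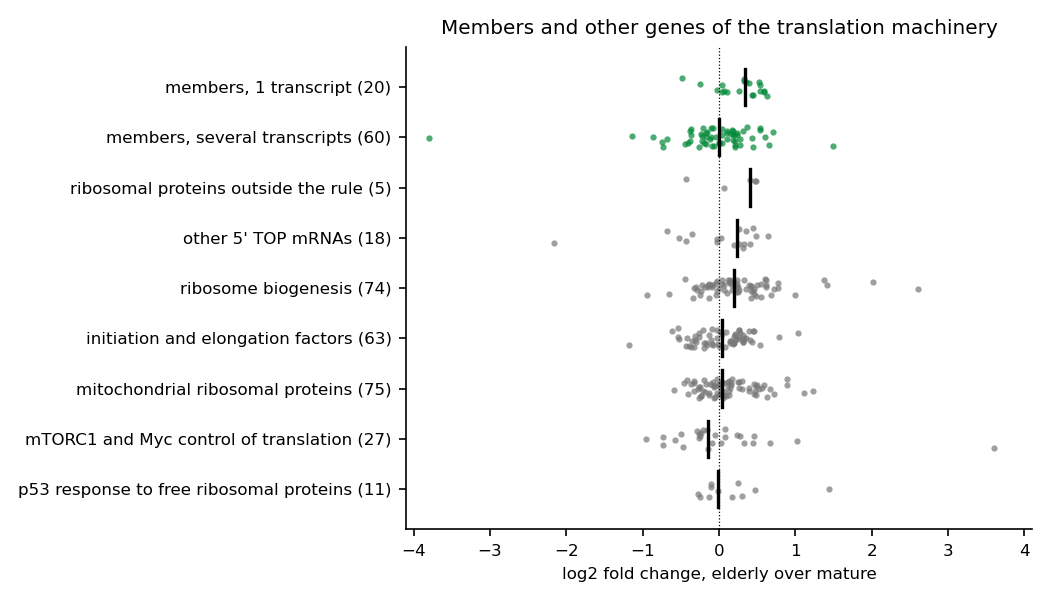
Log2 fold change, elderly over mature, of each tested gene in the 2 classes of ribosomal protein genes (green) and in 7 other lists of the translation machinery (grey), with the number tested in brackets and the median as a black bar. The medians run from -0.15 for mTORC1 and Myc control to 0.40 for the ribosomal proteins outside the rule, and single genes of most lists lie on both sides of 0.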

How the data were processed

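RNA was measured in 4 libraries from mature (3 months) and elderly (24 months) mice, grouped by their titles. The authors removed adapters with CutAdapt, mapped reads with HISAT2 to mm9 and counted with featureCounts. They deposited whole-number counts of reads per Ensembl transcript, without normalization. The strand setting and the handling of repeated or shared reads are not given in the sources used here. Counts were joined to GENCODE M1 (388 of 95883 transcripts unmatched, at most 0.0888% of counts) and summed per gene. No other per-sample columns were left out.

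Genes with more than 2 reads in all (22214) were scaled by TMM (factors 0.970, 0.990, 1.06 and 0.983) and tested with edgeR 4.0.16 in R 4.3.3 (quasi-likelihood, 2-sided, age alone, Benjamini-Hochberg adjustment, called at an adjusted p under 0.05, common dispersion 0.0703). Intervals are 95%. A floor of 3 reads per library was used. The test was tried on simulated counts, and no outcome of that trial is given or used here. Alternatives were DESeq2 1.42.0, edgeR's exact test at a dispersion of 0.2, other scalings, filters and denominators, and each library left out.

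The members were chosen by symbol, and named genes by size of change, level, paralogy and number of own bases. The members, lists and tests were chosen with earlier results of these data known. Libraries of 1 age differed beyond sampling noise (chi-square per degree of freedom over members 14.04 in mature, 72.4 in elderly). The p-values measure the spread between libraries, which may be technical. Some members are counted in the totals and are not reported here by name.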

Additional observations from a re-analysis of the deposited data

How the results depend on the processing

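The count of 0 members called higher and 0 called lower held under most of the alternatives run. Without a filter and with the robust fit 1 member was called lower, Rpl10 (edgeR adjusted p = 0.0279 and 0.0213), whose adjusted p over all alternatives ran from 0.00542 to 1. The replicate block, the fit with the replicate number as a term, called 1 member higher and 1 lower, Rpl10 (edgeR adjusted p = 0.00542), where it called 4.33% of all genes higher and 1.41% lower. The numbers do not pair the libraries: differences between replicates 1 and 2 correlated across genes with r = 0.0488 (12122 genes) and across members with r = -0.0584 (80 genes). With each library left out in turn, 0 members were called in either direction, the median log2 fold change of all members ran from -0.17 to 0.29, that of genes with 1 transcript from 0.04 to 0.64 and that of genes with several from -0.24 to 0.16. Without either elderly library no gene of the whole table was called, so those fits say nothing about stability; the lone library of an age is assumed there to vary like the others. The log2 ratio of summed CPM of genes with 1 transcript was 0.40 and ran from 0.15 to 0.65 with each library left out. Library size alone moved the median of all genes to 0.05 and that of genes with 1 transcript to 0.42. Testing each transcript on its own and keeping members with under 50% of repeated windows, both chosen after seeing the data, also called 0. Intron-derived counts, repeated windows and 2 libraries per age limit how the values can be read.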
